A study of Jaculus jaculus and Mus musculus with 24 samples.

Results

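The genes described here are the kinases that phosphorylate serine- and arginine-rich (SR) splicing factors, namely Clk1, Clk2, Clk3, Clk4, Srpk1, Srpk2 and Srpk3, together with Rsrp1, which encodes a small arginine- and serine-rich protein. They are 8 of the 17641 features counted in the deposited tables, found by pairing each transcript identifier with its symbol in the mouse annotation. They were chosen by their CPM levels over these groups and by the wide spread between libraries, with earlier results of these data known, so the calls below describe them and give no independent support. All 8 passed the filter on low counts.

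RNA sequencing was done on muscle from the lesser Egyptian jerboa, Jaculus jaculus, a hopping rodent whose intrinsic foot muscles are lost after birth, and from the mouse, which keeps them. The 8 groups of 3 libraries were hindfoot muscle and the forelimb flexor digitorum superficialis (FDS) muscle of each species, collected on the day of birth (P0) or 3 days later (P3). The labels give the treatment of all animals as normal and name no strain, allele or agent. Foot muscle was taken from tissue sections and the FDS by dissection, so the way of sampling and the limb cannot be told apart. The labels describe P0 reads as trimmed and P3 reads as original, so age and this handling of the reads cannot be told apart either. They do not say that libraries are separate animals, so p-values measure the spread between libraries, which may be technical.

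SR proteins carry a tail of arginine-serine repeats whose phosphorylation decides where they sit and when they act in splicing. SRPK kinases work mainly in the cytoplasm and prepare SR proteins for import by transportin 3, whereas CLK kinases work in the nucleus, add further phosphates and release SR proteins from nuclear speckles. Clk1 and Clk4 are known for making partly spliced transcripts that stay in the nucleus and for responding to temperature and stress through changes in splicing. Srpk3 is a kinase of striated muscle and a target of MEF2 transcription factors. The counts used here give 1 number per gene and do not tell spliced from unspliced transcripts.

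In the mouse assembly GRCm38 (GENCODE M21) all 8 are protein-coding genes on 8 chromosomes. The CLK genes have 13 exons each in the transcript counted: Clk1 at chr1:58412000-58424066 on the minus strand, Clk2 at chr3:89164795-89176921 on the plus strand, Clk3 at chr9:57750709-57765860 on the minus strand and Clk4 at chr11:51263114-51281764 on the plus strand. Rsrp1 has 5 exons at chr4:134923592-134927671 on the plus strand. Srpk1 has 16 exons at chr17:28587648-28622709 on the minus strand, Srpk2 has 15 at chr5:23503264-23616534 on the minus strand, and Srpk3 has 15 at chrX:73774405-73778925 on the plus strand. The authors' build is not given in the sources used here.

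Because paralogs can share reads, the mouse transcripts (GENCODE M21) were searched for shared sequence. Clk1 and Clk4 share their longest identical run with each other, 34 bases inside the coding sequence, shown in capitals with 12 flanking bases on each side in lower case:
Clk1: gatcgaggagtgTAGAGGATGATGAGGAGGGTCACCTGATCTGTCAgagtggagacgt
Clk4: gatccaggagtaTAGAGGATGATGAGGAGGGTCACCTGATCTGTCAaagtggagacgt
The longest run shared within the SRPK genes joins Srpk1 and Srpk3, 29 coding bases, again in capitals:
Srpk1: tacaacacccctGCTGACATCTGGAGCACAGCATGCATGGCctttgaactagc
Srpk3: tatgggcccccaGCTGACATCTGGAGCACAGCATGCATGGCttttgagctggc
No window of 50 bases from Clk1, Clk2, Clk3, Clk4, Rsrp1, Srpk2 or Srpk3 occurs in the transcript of another counted feature. In Srpk1, 39 of 4604 such windows (0.847%) do, and the features that hold them include no CLK gene, no other SRPK gene and not Rsrp1. Jerboa transcripts were not analysed here, so this holds for mouse sequence only.

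Libraries held 16.7 M to 54.7 M counted reads, and every member had at least 540 reads in every library. Muscle identity was checked on 15 fibre markers, of which all had reads in every library, with summed levels of 32507 to 93923 CPM (the usual normalised read count, a gene's share of the library's reads, with library sizes scaled by the trimmed mean of M-values). Foot muscle differed from forelimb muscle in more than these kinases. Of 15 fibre markers, 14 were lower in foot in jerboa at P0, 11 in jerboa at P3 and 14 in mouse at either age. At P3, 1 fibre marker was higher in foot in each species. All 6 tendon markers were higher in foot in all 4 comparisons, and all 6 endothelial markers were lower in all 4. Of all genes, 27.3% to 35.9% were higher and 25.3% to 34.8% lower in foot over these comparisons. At P3 the summed level of the fibre markers was 32507 to 34577 CPM in jerboa foot and 64092 to 72842 in jerboa forelimb, that of tendon markers 7900 to 9148 against 2714 to 3482, and that of endothelial markers 184 to 208 against 904 to 1042. In mouse at P3 the fibre markers summed to 43883 to 46788 CPM in foot and 70742 to 76872 in forelimb, the tendon markers to 2934 to 3327 against 1370 to 1893, and the endothelial markers to 472 to 521 against 1001 to 1077. No marker of these 3 lists was at 0 in any library. Of 8 myogenic markers 4 were higher and 4 lower in the foot of P3 jerboa, and 6 were higher and 0 lower in that of P3 mouse. Of 6 cartilage markers 3 were higher and 1 lower in the jerboa comparison at P3, and 5 were higher and 0 lower in the mouse comparison. Their part in the results below was not tested, and in bulk tissue fewer cells of a type and less RNA per cell cannot be told apart.

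Clk1 had the largest limb difference of the 8 genes in jerboa at P3. In jerboa foot at P3 its levels were 362, 354 and 278 CPM in replicates 1, 2 and 3, and in jerboa forelimb at P3 they were 76.2, 68.3 and 54.2 CPM. The lowest foot library lay above the highest forelimb library, and Clk1 was 5.0-fold higher in foot (log2 fold change 2.32 ± 0.24 SE, n = 3 libraries per group, edgeR quasi-likelihood adjusted p = 4.96e-09). In mouse at P3 the foot libraries had 88.4, 117 and 116 CPM and the forelimb libraries 53.7, 46.7 and 51.7 CPM. The groups again did not overlap, with a 2.11-fold difference (log2 1.08 ± 0.23, adjusted p = 3.55e-04).

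At P0 Clk1 did not pass in either species in the fit of all libraries. Jerboa foot had 229, 213 and 166 CPM of Clk1, and jerboa forelimb 381, 187 and 134 CPM. Replicate 1 of the forelimb stood above every other Clk1 value of the series, replicate 3 stood below all foot libraries, and the difference of -0.21 ± 0.23 did not pass (adjusted p = 0.437). Without forelimb replicate 1 the difference was 0.34 (adjusted p = 0.0786), and without forelimb replicate 3 it was -0.49 and passed (adjusted p = 0.0383). In mouse at P0 foot had 51.8, 67.6 and 61.4 CPM and forelimb 91.3, 73.0 and 86.2 CPM. The mouse foot libraries were all below the forelimb libraries, and the difference of -0.47 ± 0.23 did not pass (adjusted p = 0.0845). It passed in the fit of these 6 libraries alone (-0.47, adjusted p = 0.00574). The fit of all 24 libraries took 1 spread per gene, P0 jerboa forelimb included, so its SE is not that of these 6.

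Clk4, the closest relative of Clk1, was also higher in foot at P3 in both species. Jerboa foot at P3 had 142, 130 and 113 CPM and jerboa forelimb 36.7, 34.5 and 30.5 CPM. The libraries did not overlap, and Clk4 was 3.79-fold higher in foot (1.92 ± 0.15, adjusted p = 5.26e-11). In mouse at P3 it was 43.9, 52.8 and 47.6 CPM in foot and 26.9, 27.4 and 29.1 CPM in forelimb, a difference of 0.79 ± 0.15 (adjusted p = 9.05e-05). At P0 the jerboa values were 101, 89.8 and 87.9 CPM in foot and 125, 81.6 and 62.1 CPM in forelimb. As for Clk1, forelimb replicate 1 was the highest and replicate 3 the lowest of these 6, and the difference of 0.05 ± 0.15 did not pass (adjusted p = 0.781). Without forelimb replicate 1 Clk4 was higher in foot (0.37, adjusted p = 0.00514). In mouse at P0 Clk4 had 35.3, 36.3 and 37.1 CPM in foot, all below the 45.3, 47.1 and 40.1 CPM of forelimb, a difference of -0.28 ± 0.15 that did not pass (adjusted p = 0.109). In the fit of these 6 libraries alone Clk4 passed as well (-0.29, adjusted p = 0.0116).

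Rsrp1 is little characterised beyond its arginine- and serine-rich sequence. Its levels in jerboa at P3 were 203, 233 and 209 CPM in foot and 48.2, 45.2 and 38.9 CPM in forelimb. The difference of 2.29 ± 0.13 was 4.87-fold and had the smallest adjusted p of the 8 genes in that comparison (9.59e-14). In mouse at P3 foot had 104, 119 and 116 CPM and forelimb 73.5, 70.4 and 57.3 CPM, a difference of 0.76 ± 0.12 without overlap (adjusted p = 1.48e-05). At P0 the limbs overlapped in both species. Jerboa foot had 151, 149 and 115 CPM and forelimb 137, 114 and 119 CPM (0.17 ± 0.12, adjusted p = 0.236), and mouse foot had 88.4, 120 and 123 CPM and forelimb 105, 130 and 126 CPM (-0.12 ± 0.12, adjusted p = 0.399).

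**Figure D1:**
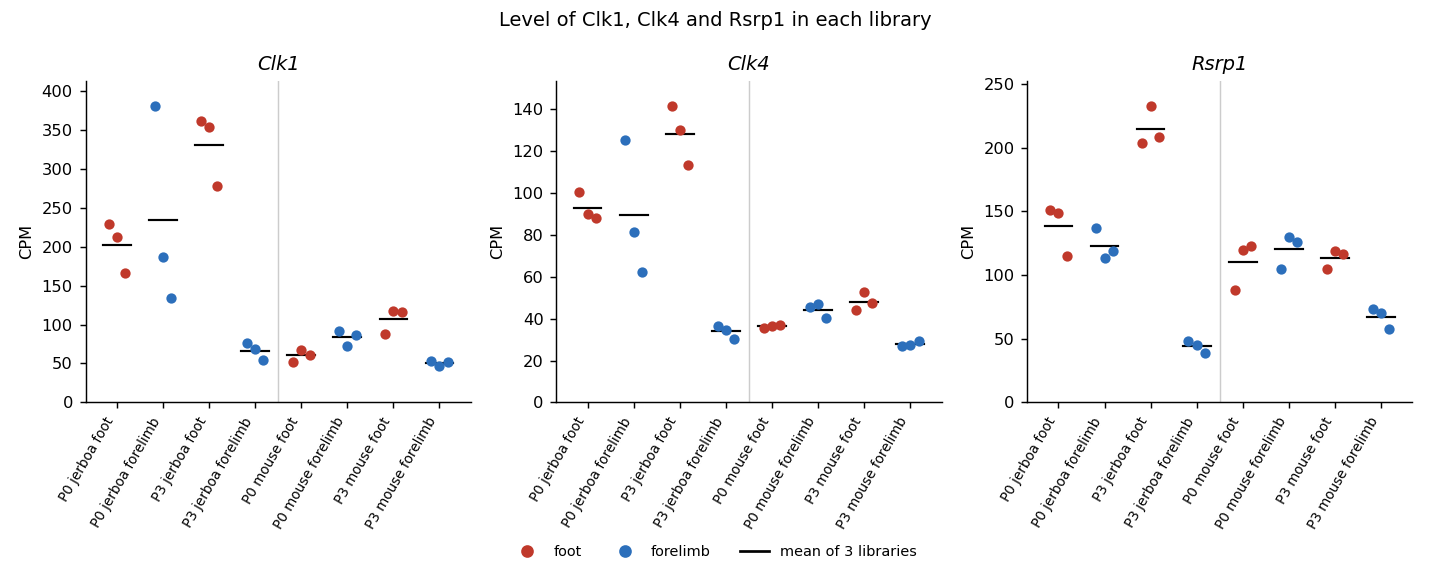
Level of Clk1, Clk4 and Rsrp1 in each of 24 libraries (CPM, linear axis from 0), with red points for foot, blue points for forelimb and a bar at the mean of 3 libraries. Jerboa forelimb falls from P0 to P3 in all 3 panels, and replicate 1 of P0 jerboa forelimb is the highest point of the Clk1 panel at 381 CPM.

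The other nuclear kinases, Clk2 and Clk3, had another pattern, with foot above forelimb at both ages. Clk2, a CLK kinase also known as an insulin-regulated kinase of the liver, had 104, 114 and 107 CPM in jerboa foot at P0 against 55.8, 63.5 and 68.7 CPM in forelimb. At P3 it had 70.1, 71.3 and 69.2 CPM against 35.4, 32.6 and 32.2 CPM. Foot was above forelimb in every library at both ages, by 0.79 ± 0.08 at P0 (adjusted p = 8.20e-09) and 1.07 ± 0.08 at P3 (adjusted p = 4.80e-11). Mouse foot had 61.4, 78.2 and 73.4 CPM at P0 against 35.8, 44.3 and 39.6 CPM, and 39.6, 40.0 and 38.7 CPM at P3 against 27.4, 27.4 and 27.6 CPM. The mouse libraries did not overlap either, with differences of 0.83 ± 0.08 and 0.52 ± 0.08 (adjusted p = 5.96e-09 and 1.16e-05).

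Clk3, another kinase of the nucleus, had the same direction. Jerboa foot at P0 had 173, 173 and 173 CPM and forelimb 99.2, 101 and 110 CPM. At P3 jerboa foot had 135, 141 and 142 CPM and forelimb 96.8, 97.7 and 95.1 CPM. In mouse the values were 67.8, 72.3 and 74.0 CPM in foot and 51.9, 57.9 and 55.6 CPM in forelimb at P0, and 59.8, 56.4 and 57.7 CPM against 50.9, 46.5 and 48.7 CPM at P3. Clk3 was higher in foot in all 4 comparisons without overlap, by 0.74 ± 0.06, 0.53 ± 0.06, 0.37 ± 0.06 and 0.25 ± 0.06 in that order (adjusted p = 2.21e-11, 7.47e-09, 3.93e-06 and 5.75e-04). Counting both strands, the mouse difference of Clk3 at P3 was 0.14 and did not pass (adjusted p = 0.0606).

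Srpk1, the widely expressed cytoplasmic SR kinase, had opposite signs in the 2 species. Jerboa foot had 39.2, 39.5 and 34.5 CPM at P0 against 45.0, 45.3 and 45.0 CPM in forelimb, and 34.7, 33.2 and 32.1 CPM at P3 against 42.0, 37.9 and 38.2 CPM. All jerboa foot libraries were below all forelimb libraries of their age, by -0.26 ± 0.07 and -0.24 ± 0.07 (adjusted p = 0.00266 and 0.00391). Mouse foot had 68.8, 68.8 and 68.6 CPM at P0 against 37.8, 45.5 and 39.7 CPM, and 55.7, 55.5 and 56.7 CPM at P3 against 39.7, 44.1 and 43.9 CPM. All mouse foot libraries were above, by 0.75 ± 0.07 and 0.40 ± 0.07 (adjusted p = 1.19e-09 and 2.35e-05).

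Srpk2, a related SR kinase known for its level in brain, passed in 1 of 4 limb comparisons. Its jerboa values were 75.5, 75.7 and 85.4 CPM in foot at P0, 69.7, 64.7 and 63.6 CPM in forelimb at P0, 84.6, 79.2 and 83.2 CPM in foot at P3, and 77.0, 84.1 and 78.8 CPM in forelimb at P3. Foot was above forelimb at P0 (0.26 ± 0.06, adjusted p = 9.66e-04), while the P3 libraries overlapped (0.04 ± 0.06, adjusted p = 0.575). Mouse foot had 77.4, 72.4 and 67.8 CPM at P0 and 87.4, 82.5 and 81.9 CPM at P3, and mouse forelimb 70.8, 70.5 and 71.8 CPM and 77.2, 75.0 and 81.6 CPM. Neither mouse difference passed (0.03 ± 0.06 and 0.11 ± 0.06, adjusted p = 0.709 and 0.148), although the P3 libraries did not overlap. The mouse difference at P3 passed in edgeR with upper quartile scaling (0.14, adjusted p = 0.0467). It also passed with limma voom with library quality weights (0.11, adjusted p = 0.0269).

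Srpk3, the SR kinase of striated muscle, was higher in foot in jerboa at P0 and in mouse at P3, and did not pass in the other 2 limb comparisons. Most fibre markers were lower in foot in all 4. Jerboa foot at P0 had 352, 383 and 339 CPM, above the 259, 288 and 303 CPM of forelimb (0.34 ± 0.08, adjusted p = 7.18e-04). At P3 the jerboa limbs overlapped, with 223, 244 and 242 CPM in foot and 235, 180 and 228 CPM in forelimb (0.14 ± 0.08, adjusted p = 0.124). Without forelimb replicate 1 that difference passed (0.21, adjusted p = 0.0387). Mouse foot had 235, 206 and 217 CPM at P0 against 201, 196 and 202 CPM, a difference of 0.13 ± 0.08 that did not pass although the libraries did not overlap (adjusted p = 0.154). At P3 mouse foot had 198, 187 and 187 CPM against 124, 117 and 127 CPM, a difference of 0.64 ± 0.08 (adjusted p = 4.55e-07).

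**Figure D2:**
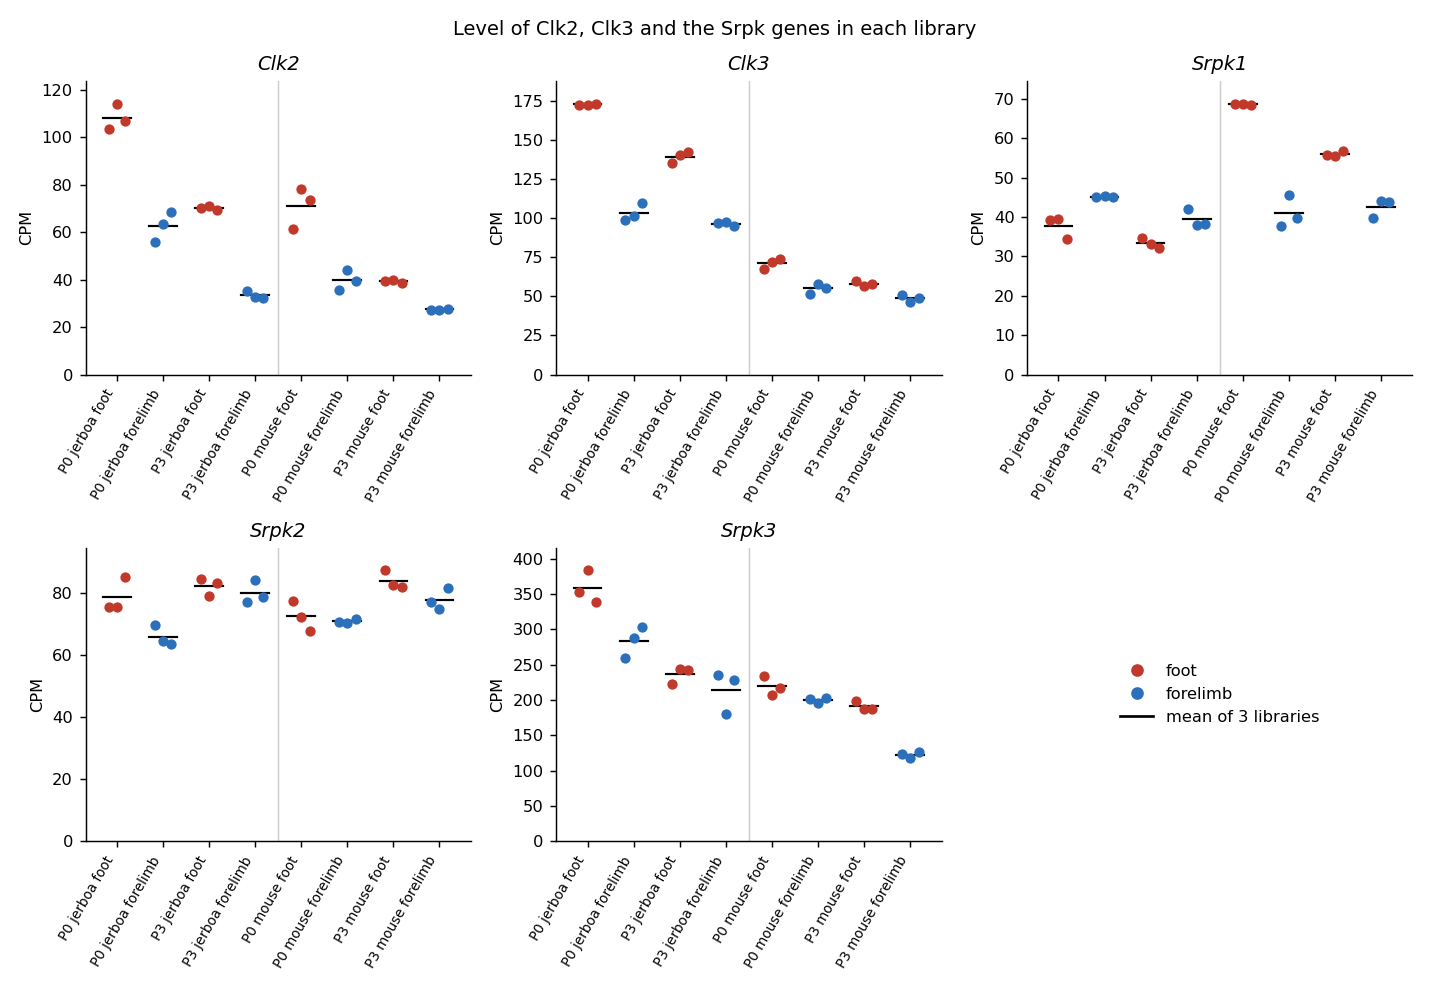
Level of Clk2, Clk3, Srpk1, Srpk2 and Srpk3 in each library (CPM, linear axes from 0), with the same colours and mean bars as for Clk1. Foot lies above forelimb for Clk2 and Clk3 at both ages in both species, and Srpk1 lies below forelimb in jerboa foot and above it in mouse foot.

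In P0 jerboa, foot exceeded forelimb for 4 of the 8 genes and was below it for 1, where 31.2% of the 14448 genes tested were called higher and 34.8% lower, 65.9% in all. In P3 jerboa the counts were 5 and 1, beside 35.9% higher and 32.1% lower, 67.9% in all. In P0 mouse they were 3 and 0, beside 29.8% higher and 29.3% lower, 59.0% in all, and by edgeR 0 of the 8 were lower at an unadjusted p under 0.05 as well. In P3 mouse they were 7 and 0, beside 27.3% higher and 25.3% lower, 52.5% in all. Most genes of the table differed between foot and forelimb, and since the 8 were chosen with these values known, nothing is read from the counts. The median log2 difference of the 8 was 0.21 in jerboa at P0, 0.80 in jerboa at P3, 0.08 in mouse at P0 and 0.58 in mouse at P3, and the medians over all genes were -0.01, 0.04, 0.01 and 0.03. By rank of log2 difference among all genes from the highest, Clk1 stood at 339, Rsrp1 at 346 and Clk4 at 522 in jerboa at P3.

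**Figure D3:**
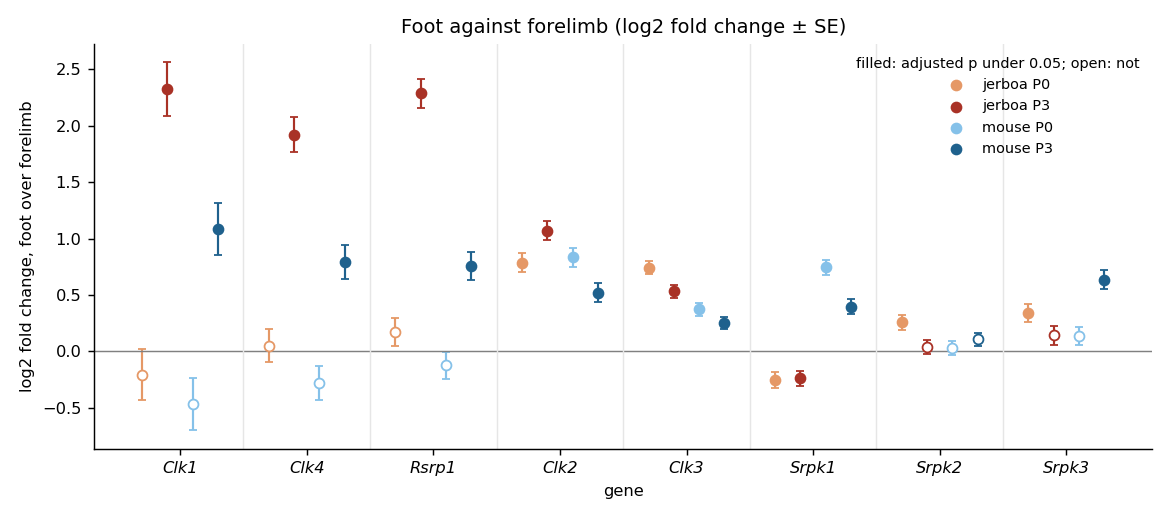
Log2 fold change of foot over forelimb for the 8 genes in the 4 comparisons, with bars of 1 SE (3 libraries per group), filled where the adjusted p was under 0.05. Clk1, Clk4 and Rsrp1 are near or below 0 at P0 and reach 2.32, 1.92 and 2.29 in jerboa at P3.

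The difference between species was tested as the jerboa limb difference minus the mouse limb difference. At P3, 5 of the 8 were higher and 2 lower in jerboa, beside 24.1% of all genes called higher and 24.9% lower, 49.0% in all. Rsrp1 differed by 1.53 ± 0.18 (adjusted p = 1.15e-07), Clk1 by 1.24 ± 0.32 (adjusted p = 0.00257) and Clk4 by 1.13 ± 0.21 (adjusted p = 9.15e-05). Clk2 and Clk3 differed by 0.55 ± 0.12 and 0.28 ± 0.08 (adjusted p = 4.44e-04 and 0.00481). Srpk1 and Srpk3 went the other way, by -0.63 ± 0.10 and -0.49 ± 0.11 (adjusted p = 6.44e-06 and 8.58e-04). Srpk2 did not pass (-0.06 ± 0.09, adjusted p = 0.572).

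At P0, 2 were higher and 1 lower, beside 21.6% of all genes called higher and 26.9% lower, 48.6% in all. Srpk1 had the largest difference of the 8, at -1.0 ± 0.10 (adjusted p = 1.21e-08), and Clk3 differed by 0.37 ± 0.08 (adjusted p = 4.38e-04). Srpk2 differed by 0.23 ± 0.09 (adjusted p = 0.0366), a call lost on leaving out any of 7 of the 12 libraries, with differences of 0.17 to 0.28 over all 12. It was also lost with the replicate block (0.23, adjusted p = 0.0703), upper quartile scaling (0.18, 0.0990), no filter on low counts (0.22, 0.0560) and only the libraries compared (0.23, 0.0934). Clk1 and Clk4 did not pass (0.26 ± 0.32 and 0.34 ± 0.21, adjusted p = 0.539 and 0.198), and with the replicate block Clk4 did (0.39, adjusted p = 0.0455). Without replicate 1 of P0 jerboa forelimb both passed, at 0.81 and 0.66 (adjusted p = 0.00452 and 8.32e-04). Rsrp1, Clk2 and Srpk3 did not pass, with values of 0.29 ± 0.17, -0.05 ± 0.12 and 0.20 ± 0.11 (adjusted p = 0.173, 0.781 and 0.149).

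Markers of other cells also changed with age. Of 8 myogenic markers, 7 fell and 1 rose in jerboa foot, and 7 fell and 0 rose in jerboa forelimb. In mouse, 5 fell and 1 rose in foot, and 4 fell and 1 rose in forelimb. Beside the marker counts given here, 27.0% of all genes rose and 20.3% fell in jerboa foot. The shares were 22.5% and 20.6% in jerboa forelimb, 29.1% and 28.5% in mouse foot, and 26.0% and 25.4% in mouse forelimb. In jerboa forelimb all 6 endothelial markers rose and 8 of 15 fibre markers fell, with 0 rising. In mouse forelimb 4 of 6 endothelial and all 5 fat cell markers rose, and 3 of 6 Schwann cell and neuron markers rose and 1 fell, with a sum of 58.6 to 84.6 CPM at P0 and 643 to 678 CPM at P3. In jerboa foot 5 of 6 macrophage markers rose and 0 fell. Of 15 fibre markers, 2 rose and 9 fell in jerboa foot, 8 and 2 in mouse foot, and 6 and 5 in mouse forelimb. Of 15 immediate early genes, 14 fell in mouse foot, 9 in mouse forelimb and 6 in jerboa foot, with 0 rising. In jerboa forelimb 4 of them fell and 2 rose. Their part in the age changes of the 8 genes was not tested.

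Between P0 and P3, jerboa forelimb fell and jerboa foot rose for Clk1, Clk4 and Rsrp1. In forelimb they fell by 1.82 ± 0.23, 1.40 ± 0.15 and 1.48 ± 0.13 on the log2 scale (adjusted p = 1.31e-06, 1.23e-07 and 5.70e-09), and all P3 libraries lay below all P0 libraries. In jerboa foot they rose by 0.71 ± 0.23, 0.47 ± 0.15 and 0.64 ± 0.12 (adjusted p = 0.0124, 0.0109 and 1.62e-04), again without overlap. The Clk1 rise was 0.59 and did not pass without P0 foot replicate 3 (adjusted p = 0.0652), and the Clk4 rise was 0.39 and did not pass without P3 foot replicate 1 (adjusted p = 0.0559).

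In mouse forelimb Clk1, Clk4 and Rsrp1 fell by 0.72 ± 0.23, 0.67 ± 0.15 and 0.84 ± 0.12 (adjusted p = 0.0111, 6.30e-04 and 3.83e-06). In mouse foot Clk1 rose by 0.83 ± 0.23 and Clk4 by 0.41 ± 0.15 (adjusted p = 0.00358 and 0.0225), while Rsrp1 overlapped between the ages (0.04 ± 0.12, adjusted p = 0.819). The Clk4 rise in mouse foot did not pass without P0 foot replicate 1, P0 foot replicate 2 or P3 foot replicate 2 (0.39, 0.41 and 0.34, adjusted p = 0.0551, 0.0503 and 0.0939).

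Clk2 fell in all 4 tissues, by 0.62 ± 0.08 in jerboa foot, 0.91 ± 0.08 in jerboa forelimb, 0.85 ± 0.08 in mouse foot and 0.54 ± 0.08 in mouse forelimb (adjusted p of 1.41e-06, 1.62e-08, 5.41e-09 and 8.69e-06). Clk3 fell by 0.31 ± 0.06, 0.30 ± 0.06 and 0.18 ± 0.06 in jerboa foot, mouse foot and mouse forelimb (adjusted p = 6.51e-05, 6.89e-05 and 0.0104). In jerboa forelimb its change of -0.10 ± 0.06 did not pass (adjusted p = 0.160). The mouse forelimb fall of Clk3 was 0.14 and did not pass without replicate 2 of either age (adjusted p of at most 0.0674).

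Srpk3 fell in all 4 tissues, by 0.60 ± 0.08 in jerboa foot, 0.40 ± 0.08 in jerboa forelimb, 0.20 ± 0.08 in mouse foot and 0.70 ± 0.08 in mouse forelimb (adjusted p = 1.85e-06, 2.63e-04, 0.0367 and 1.23e-07). The fall in mouse foot did not pass with DESeq2 (-0.18, adjusted p = 0.0506), with its size factors (-0.18, 0.0566) or with no filter (-0.19, 0.0525), nor without P0 replicate 1 or 3 or P3 replicate 2 or 3, with values of -0.15, -0.21, -0.18 and -0.19 (adjusted p = 0.153, 0.0616, 0.103 and 0.0996). Srpk1 fell by 0.30 ± 0.07 in mouse foot (adjusted p = 5.23e-04). Its falls of 0.18 ± 0.07 in jerboa foot and 0.19 ± 0.07 in jerboa forelimb (adjusted p = 0.0435 and 0.0243) were lost on leaving out any of 4 of 6 and of 5 of 6 libraries, with values from -0.24 to -0.14 and from -0.24 to -0.17. Srpk1 did not pass in mouse forelimb (0.06 ± 0.07, adjusted p = 0.512). Srpk2 was the one member that rose with age and did not fall anywhere, by 0.28 ± 0.06 in jerboa forelimb and 0.21 ± 0.06 in mouse foot (adjusted p = 8.33e-04 and 0.00514). In jerboa foot and mouse forelimb Srpk2 did not pass (0.06 ± 0.06 and 0.13 ± 0.06, adjusted p = 0.442 and 0.0709). In mouse forelimb all P3 libraries lay above all P0 libraries. There the Srpk2 rise passed with DESeq2 (0.16, adjusted p = 0.0195) and with edgeR on DESeq2 size factors (0.16, 0.0349). It also passed with limma voom with library quality weights (0.12, 0.0354).

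Over the 8 genes, 3 rose and 4 fell in jerboa foot, where 27.0% of all genes rose and 20.3% fell, 47.3% in all. In jerboa forelimb 1 rose and 6 fell, beside 22.5% and 20.6% of all genes, 43.2% in all. In mouse foot 3 rose and 4 fell, beside 29.1% and 28.5%, 57.6% in all. In mouse forelimb 0 rose and 6 fell by edgeR, beside 26.0% and 25.4%, 51.4% in all. In mouse forelimb Srpk2 rose at an unadjusted p of 0.0388. A further comparison, chosen after the values were seen, asked whether the limb difference changed from P0 to P3. In jerboa 3 of the 8 were higher at P3 and 1 lower, beside 16.2% of all genes higher and 12.1% lower, 28.3% in all. In mouse 4 were higher and 2 lower, beside 17.2% and 14.3%, 31.5% in all. Clk1, Clk4 and Rsrp1 rose in foot against forelimb by 2.53 ± 0.33, 1.87 ± 0.21 and 2.12 ± 0.18 in jerboa (adjusted p = 4.96e-06, 9.87e-07 and 1.55e-08) and by 1.55 ± 0.33, 1.08 ± 0.21 and 0.88 ± 0.17 in mouse (adjusted p = 7.88e-04, 4.16e-04 and 4.19e-04).

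**Figure D4:**
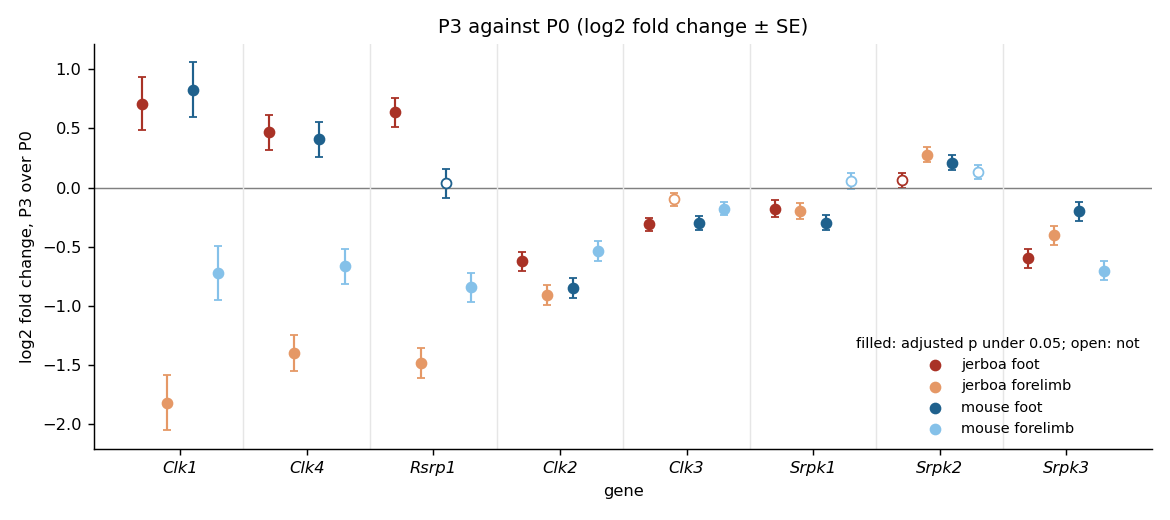
Log2 fold change of P3 over P0 for the 8 genes in each tissue, with bars of 1 SE (3 libraries per group), filled where the adjusted p was under 0.05. Clk1, Clk4 and Rsrp1 lie below 0 in both forelimb comparisons, reaching -1.82 in jerboa, whereas Clk2 and Srpk3 lie below 0 in all 4 tissues.

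The spread between libraries of a group was the feature by which these genes were chosen, and it is given as a description. In P0 jerboa forelimb the highest Clk1 library was 2.84 times the lowest, rank 4 from the widest of the 8682 genes with at least 10 CPM there, and the highest Clk4 library was 2.02 times the lowest, rank 8. The median gene of that group had a ratio of 1.11 and the gene at the 95th percentile 1.36. The other 6 members were between 1.01 and 1.23 there. Among the genes with the widest spread in that group, the immediate early genes Egr1 and Fos were lowest in replicate 1, at 34.5 CPM against 105 and 114 CPM and at 10.3 CPM against 24.1 and 31.8 CPM. Their part in the spread of Clk1 was not tested. In the other groups Clk1 ranged from 1.15 to 1.41 between lowest and highest library and Clk4 from 1.05 to 1.25.

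With each group's mean removed, log2 CPM of Clk1 and Clk4 correlated at r = 0.89 over 24 libraries, and each was the gene most like the other among 9533 genes with a mean of at least 10 CPM. Without the 3 libraries of P0 jerboa forelimb, whose spread these genes were chosen for, r was 0.65 over 21 libraries. It was 0.90 over the other 9 jerboa libraries and 0.31 over the 12 mouse libraries. In P0 mouse forelimb replicate 2 was the lowest for Clk1 and the highest for Clk4, and in P3 mouse forelimb replicate 1 was the highest for Clk1 and the lowest for Clk4. Clk1 and Rsrp1 correlated at 0.50 and Clk4 and Rsrp1 at 0.34. Clk1 to Clk4 was 1.78 to 3.04 in the 12 jerboa libraries and 1.47 to 2.43 in the 12 mouse libraries, and the highest ratio was in the P0 jerboa forelimb library with the highest Clk1. These ratios are of CPM without regard to transcript length, so the species cannot be compared by them.

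By the same measure other genes ranked highest for the other members. They were picked from the top of a ranking of 9533 genes, where some unrelated genes can reach a high r. Whether they are regulated together with the member was not tested. The genes most like Rsrp1 were Gpbp1l1 (r = 0.93) and Bcorl1 (0.89), and those most like Clk2 were Phrf1 (0.88) and Hsf1 (0.86), which encodes the heat shock transcription factor. Those most like Clk3 were Mapre3 (0.80) and Ubap2l (0.76), those most like Srpk1 were Gja5 (0.84) and Apaf1 (0.77), and those most like Srpk2 were Rtn4 (0.82) and Denr (0.82). For Srpk3 they were Ccdc136 (0.83), the skeletal actin gene Acta1 (0.82), Sil1 (0.81), the sarcomere cap gene Tcap (0.80) and Prmt7 (0.80).

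Group levels were compared by the lower of the correlations over the 12 jerboa and the 12 mouse libraries, so that a gene had to follow the member in both species. The genes most like Srpk3 were the tubulin gene Tubb2b (r = 0.95), Col27a1 (0.94), the cyclin gene Ccnd3 (0.94), the myoblast fusion gene Mymx (0.94) and Tubb6 (0.93). The same measure was extended to other members after values were seen. All genes named by it were picked from the top of a ranking, and shared regulation was not tested. Clk2 was most like Nsun5, Zfp513, Srrt, Men1 and Scx (0.97 to 0.98). Scx is a transcription factor of tendon and 1 of the 6 tendon markers that were higher in foot with Clk2, and the part of tendon cells in the level of Clk2 was not tested. Clk3 was most like Tmem214 (0.98), Srpk1 most like Ralgds (0.90) and Srpk2 most like Olfml2b (0.90). Clk1 was most like Rnpc3, a protein of the minor spliceosome (0.93), and then Clk4 (0.90) and Gm12258 (0.88). Clk4 was most like Rbm39 (0.91), an SR-related splicing factor, and Rsrp1 was most like Ogt (0.95), which encodes the enzyme that adds O-linked N-acetylglucosamine. In mouse, Rnpc3 was 26.5 to 27.2 CPM in foot and 12.5 to 13.2 CPM in forelimb at P3, and in jerboa 33.8 to 38.6 CPM and 9.12 to 9.98 CPM.

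Levels can be compared between members only per length, and this was done in mouse, where the length of the counted transcript is known. Srpk3 was highest per kilobase in every mouse group, from 61.9 ± 2.40 CPM per kilobase (SD, n = 3) in forelimb at P3 to 111 ± 7.19 in foot at P0, and Rsrp1 was next, at 38.4 ± 4.91 to 68.8 ± 7.87. In foot at P3 the order was Srpk3, Rsrp1, Clk1, Clk4, Clk3, Clk2, Srpk2 and Srpk1, with Srpk3 at 96.3 ± 3.18 and Srpk2 at 12.9 ± 0.466 CPM per kilobase, and the neighbours Rsrp1 and Clk1, and Clk4 and Clk3, overlapped between libraries. In forelimb at P3 Clk3 stood above Clk4, and no neighbours overlapped.

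The targets of these kinases were described as lists chosen with earlier results of these data known. Beside every count of these lists stand the shares of all genes called higher and lower in foot, 31.2% and 34.8% in P0 jerboa, 35.9% and 32.1% in P3 jerboa, 29.8% and 29.3% in P0 mouse, and 27.3% and 25.3% in P3 mouse. Of the 13 SR protein genes listed, 10 were counted, and the other 3 were not analysed here. At P3 all 10 were higher in foot in both species, with medians of 0.60 in jerboa and 0.52 in mouse. At P0, 7 were higher and 1 lower in jerboa and 4 higher and 1 lower in mouse. Srsf11 had the largest difference in jerboa at P3 (1.34 ± 0.07, adjusted p = 6.47e-15), with 217 to 230 CPM in foot and 84.2 to 94.6 CPM in forelimb, and Srsf5 in mouse (0.92 ± 0.11, adjusted p = 1.23e-07), with 234 to 244 CPM and 117 to 133 CPM. Srsf3, the smallest SR protein, was lower in foot at P0 in jerboa and mouse (-0.27 ± 0.09 and -0.49 ± 0.09, adjusted p = 0.00997 and 3.67e-05).

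Of 17 SR-related nuclear proteins, foot was above forelimb for 12 and below it for 1 in P0 jerboa, 14 and 2 in P3 jerboa, 11 and 1 in P0 mouse, and 14 and 1 in P3 mouse. Their median was 0.70 in jerboa at P3 and 0.36 in mouse at P3. Ccnl2, a cyclin of splicing speckles, had 144 to 148 CPM in jerboa foot at P3 and 30.1 to 33.3 CPM in forelimb (2.20 ± 0.06, adjusted p = 9.63e-19), and 146 to 155 CPM against 63.0 to 66.6 CPM in mouse (1.23 ± 0.06, adjusted p = 3.33e-14). Pnisr, an SR-related protein of speckles, had 350 to 393 CPM against 101 to 126 CPM in jerboa (1.70 ± 0.07, adjusted p = 1.02e-15) and 161 to 170 CPM against 66.7 to 72.5 CPM in mouse (1.24 ± 0.07, adjusted p = 1.41e-12). Ccnl2 differed more in jerboa than in mouse at P3, by 0.97 ± 0.08 (adjusted p = 1.33e-09).

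Kinases of the same CMGC family that are not CLK or SRPK were called in both directions. Of 11, 3 exceeded forelimb and 7 were below it in P3 jerboa foot (median -0.54), and 1 and 7 in P3 mouse foot (median -0.32). At P0 the counts were 3 and 5 in jerboa and 2 and 8 in mouse. Hipk2, a kinase of transcription regulators, was lower in foot at P3 in jerboa and mouse (log2 differences of -2.80 ± 0.10 and -1.82 ± 0.09, adjusted p = 1.84e-17 and 6.36e-14). Prpf4b, a kinase of the spliceosome, was higher (0.52 ± 0.05 and 0.84 ± 0.05, adjusted p = 5.48e-09 and 3.48e-12), and Dyrk3, which dissolves nuclear and cytoplasmic condensates, was higher in jerboa (1.53 ± 0.11, adjusted p = 3.75e-12).

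Of 8 genes for SR protein phosphatases and their importer, 0 exceeded forelimb and 4 were below it in P0 jerboa foot, 1 and 4 at P3, and in mouse 4 and 1 at P0 and 0 and 1 at P3. Ppp1cb, a catalytic subunit of protein phosphatase 1, was the lowest in all 4, with log2 differences of -0.98 ± 0.08 and -0.58 ± 0.08 in jerboa at P0 and P3 and -1.51 ± 0.08 and -0.76 ± 0.08 in mouse (adjusted p = 2.41e-10, 9.29e-07, 3.08e-13 and 3.55e-08).

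Temperature-response genes were listed because Clk1 and Clk4 are known to respond to temperature. Of 10, foot exceeded forelimb for 3 and was below it for 4 in P0 jerboa, 7 and 2 in P3 jerboa, 5 and 0 in P0 mouse, and 2 and 3 in P3 mouse. The inducible heat shock gene Hspa1b was the highest in jerboa, at 1.46 ± 0.27 at P0 and 0.88 ± 0.39 at P3 (adjusted p = 5.05e-05 and 0.0499), and did not pass in mouse (-0.15 ± 0.27 and -0.53 ± 0.28, adjusted p = 0.665 and 0.109). The mitochondrial chaperonin gene Hspd1 was the lowest in jerboa at P0 (-1.03 ± 0.09, adjusted p = 1.64e-10), Hspb1 in jerboa at P3 (-0.64 ± 0.07, adjusted p = 1.27e-08) and Hspa1a in mouse at P3 (-1.0 ± 0.34, adjusted p = 0.0162). Sequence shared between Hspa1a and Hspa1b was not checked. Rbm3, a cold-induced RNA-binding protein, was higher in foot in all 4 comparisons (0.67 ± 0.12 and 0.78 ± 0.12 in jerboa, 0.48 ± 0.12 and 0.46 ± 0.12 in mouse, adjusted p = 2.58e-05, 3.14e-06, 0.00155 and 0.00261). Cirbp, of the same kind, was higher in both mouse comparisons (0.50 ± 0.10 and 0.72 ± 0.10, adjusted p = 1.37e-04 and 1.82e-06) and in jerboa at P3 (0.29 ± 0.10, adjusted p = 0.0134), and did not pass in jerboa at P0 (0.10 ± 0.10, adjusted p = 0.379). Of the 4 MEF2 genes, which encode activators of Srpk3, Mef2c was lower in foot in 3 of 4 comparisons and Mef2a in both mouse comparisons, while Mef2a was higher in jerboa at P3 (0.40 ± 0.06, adjusted p = 8.87e-07). Mef2d was lower in both jerboa comparisons (-0.26 ± 0.09 and -0.66 ± 0.09, adjusted p = 0.0106 and 2.70e-07), and Mef2b passed in none of the 4. In mouse at P3 Mef2a, Mef2c and Mef2d were lower in foot (-0.63 ± 0.05, -0.59 ± 0.09 and -0.60 ± 0.09, adjusted p = 1.11e-09, 2.64e-06 and 2.71e-06). The part of the MEF2 genes in the level of Srpk3 was not tested. Of 12 muscle splicing regulators, 5 exceeded forelimb and 6 were below it in P0 jerboa foot, 3 and 8 in P3 jerboa, 2 and 5 in P0 mouse, and 2 and 6 in P3 mouse. Rbm20, the regulator of titin splicing, was the lowest of them at P3 in both species (-1.73 ± 0.17 and -0.83 ± 0.14, adjusted p = 1.84e-09 and 2.20e-05).

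**Figure D5:**
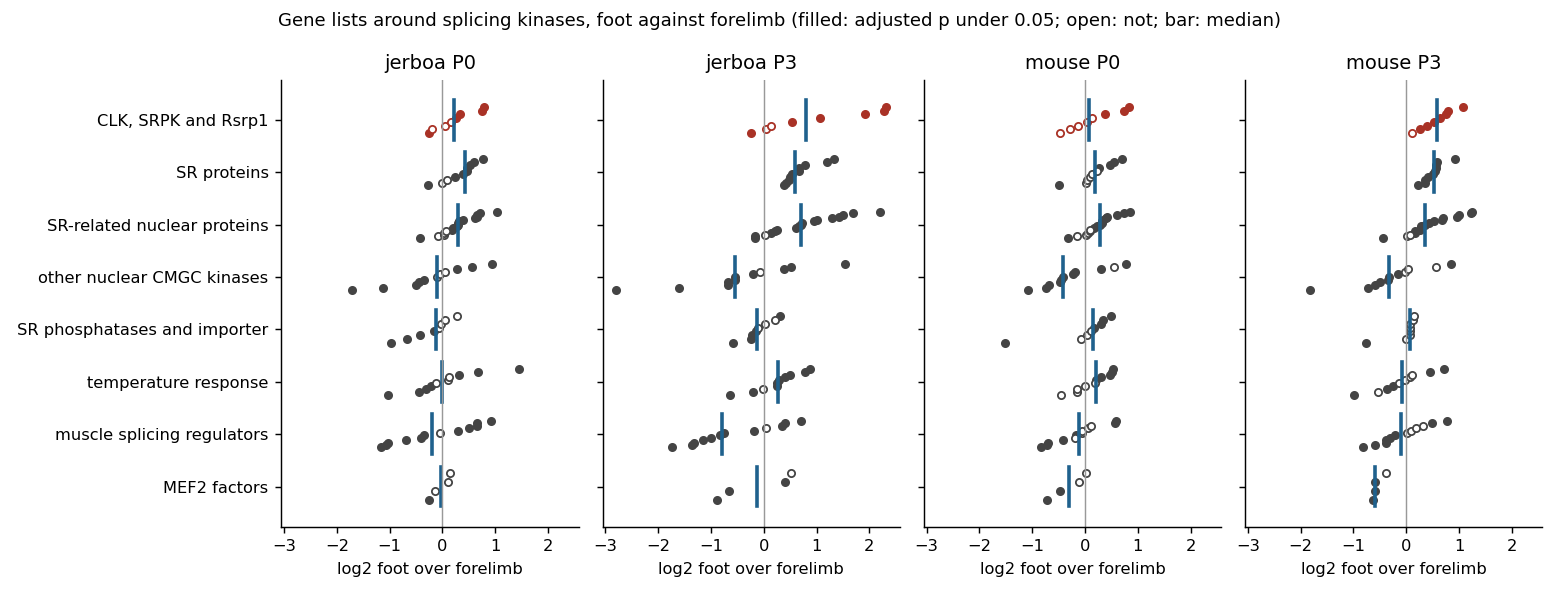
Log2 fold change of foot over forelimb for each gene of 8 lists in the 4 comparisons, as points filled where the adjusted p was under 0.05, with a bar at the list's median. At P3 the SR protein list lies wholly above 0 in both species, with medians of 0.60 and 0.52, and the other CMGC kinases lie mostly below it.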

How the data were processed

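RNA was sequenced from 24 libraries in 8 groups of 3. The deposited files hold raw read counts per mouse transcript identifier, made by the authors with STAR, per the submitters' processing notes. Not given in the sources used here are its version, the genome build and the way jerboa reads were assigned. Counts of the second strand (column 4) were used, which held 98.4% to 99.6% of stranded reads. Identifiers were paired with symbols of GENCODE M21, which 17529 of 17641 features matched.

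Counts were fitted in R 4.3.3 with edgeR 4.0.16 (quasi-likelihood F test, trimmed-mean scaling, filterByExpr, 1 coefficient per group). This tested 14448 genes with Benjamini-Hochberg adjustment over all of them and a threshold of 0.05. Every adjusted p in the text is from edgeR's quasi-likelihood test unless another tool is named. SE is the absolute log2 fold change divided by the root of F. Each gene had 1 estimate of spread over all 24 libraries. An SE or p therefore does not give the spread of the compared libraries alone. The fit was run on simulated counts of the jerboa limb comparison at P3, with 50 genes changed at each size. Of changes of 1.25, 1.5, 2 and 4-fold, 40%, 62%, 78% and 84% were recovered, and 5.04% of calls were false. The counts were drawn from the means and spread of the same fit, so they cannot test it independently. Between libraries of a group, r was 0.987 to 0.997 over genes and the chi-square per degree of freedom 6.64 to 42.4. No libraries were merged, but these values cannot tell separate animals from separate preparations of 1 animal.

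Members and lists were chosen with earlier results of these data known. Named are the 8 members, the MEF2 genes, genes drawn from the 2 highest and 2 lowest of each pathway list per comparison, and genes drawn from the 5 most like each member. Alternatives were scaling, low-count filters, DESeq2 1.42.0, limma 3.58.1 voom with and without library weights, strand, the libraries fitted, the replicate block and leaving out each library.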

Additional observations from a re-analysis of the deposited data

Results flagged for a closer look

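Limb differences that differed between species or between ages by a test of the difference itself (edgeR quasi-likelihood test, adjusted p under 0.05) are given here as log2 values. In jerboa against mouse at P0 they were Clk3 at 0.37, Srpk2 at 0.23 and Srpk1 at -1.0. At P3 they were Rsrp1 at 1.53, Clk1 at 1.24, Clk4 at 1.13, Clk2 at 0.55, Clk3 at 0.28, Srpk3 at -0.49 and Srpk1 at -0.63.

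For P3 against P0 in jerboa they were Clk1 at 2.53, Rsrp1 at 2.12, Clk4 at 1.87 and Clk3 at -0.21. In mouse they were Clk1 at 1.55, Clk4 at 1.08, Rsrp1 at 0.88, Srpk3 at 0.50, Clk2 at -0.31 and Srpk1 at -0.35. The call of Clk3 in jerboa was lost on leaving out any of 11 of 12 libraries, and that of Clk2 in mouse on leaving out any of 10 of 12. Both were also lost with upper quartile scaling and with no filter on low counts, Clk3 with reads of either strand and Clk2 with only the libraries compared. The call of Srpk2 at P0 was lost without any of 7 of 12 libraries and with 4 other alternatives. The age comparisons were chosen after the values were seen, and age cannot be told apart from the trimming of reads.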

How the results depend on the processing

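Over all results and the alternatives other than leaving out a library, 921 values kept their direction and side of the threshold, 6 reversed, 16 gained and 17 lost a call; over the fits without 1 library the numbers were 696, 16, 8 and 48. The change of the jerboa limb difference of Srpk1 reversed to -0.026 with DESeq2 size factors and with DESeq2, and to -0.046 with only the libraries compared. With library quality weights Clk1 was 0.041 in jerboa at P0, Srpk2 -0.018 in mouse at P0 and Rsrp1 -0.054 in mouse foot with age. None of these passed in the fit of all libraries, and the cause was not tested.

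Whether same-numbered foot and forelimb libraries are paired cannot be decided here. Their deviations from the group means correlated at -0.0863 to 0.115 over 12 pairs, 1 of them over 0.1. Paired libraries need not deviate together, so these values leave pairing open. With the replicate block 5 members were called in mouse at P0 against 3 without it, as with only the libraries compared (also 5), the added ones being Clk1 at -0.47 (adjusted p = 0.0199) and Clk4 at -0.28 (adjusted p = 0.0338) with the block. In the species difference at P0 the block added Clk4 (0.39, adjusted p = 0.0455) and lost Srpk2 (0.23, adjusted p = 0.0703), and in the change of the jerboa limb difference it added Clk2 (0.28, adjusted p = 0.0270). It changed no other call of the 8 genes.

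Leaving out 1 library in turn, the jerboa limb difference at P0 ranged from -0.49 to 0.34 for Clk1 and from -0.16 to 0.37 for Clk4, the highest values being without forelimb replicate 1. The species difference at P0 ranged from -0.018 to 0.81 for Clk1 and from -0.14 to 0.038 for Clk2, with 2 to 5 members called. The mouse limb difference at P0 ranged from -0.23 to 0.011 for Rsrp1 and from -0.021 to 0.075 for Srpk2. The age change ranged from -0.10 to 0.12 for Rsrp1 in mouse foot and from -0.017 to 0.14 for Srpk1 in mouse forelimb. The jerboa change of the limb difference of Srpk1 ranged from -0.044 to 0.065.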
